A study of Mus musculus with 32 samples.

Results

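The oligodendrocyte lineage and myelin genes are 34 mouse genes taken by symbol, from precursor markers to the structural proteins of compact myelin. Each symbol matched 1 row of the table of 55938 genes, and every row was read in all 32 libraries. By their known roles they fall into 2 precursor genes, 4 lineage transcription factors, 6 genes of committed and differentiating cells and 22 genes of mature, myelinating cells.

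The libraries come from homogenised lumbar spinal cord of mice with the genotype given as Aldhl1l-CreER;Rpl22-HA, which all groups share. The Aldh1l1 promoter drives an inducible Cre in astrocytes, and recombined cells carry a haemagglutinin tag on the ribosomal protein Rpl22. RNA bound to tagged ribosomes was pulled down with an antibody (Trap, 24 libraries), and RNA of the homogenate with all its cell types was kept as Input (8 libraries). Mice had no fracture or were taken 3, 5 or 7 weeks after a fracture, a model of complex regional pain syndrome. Females and males were sampled at every injury state, which gives 8 groups with 3 Trap libraries and 1 Input library each. The sources used here give no age, strain or time of recombination, and nothing says that the libraries of a group came from separate animals, so p-values measure the spread between libraries, which may be technical.

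Oligodendrocytes wrap axons of the central nervous system in myelin. Precursor cells carry the receptor Pdgfra and the proteoglycan Cspg4 (NG2), pass through a short committed stage marked by Gpr17 and Enpp6, and then switch on Myrf and the myelin genes. The spinal cord is rich in white matter, so mature oligodendrocyte RNA is abundant in whole-cord RNA. The pull-down tags astrocyte ribosomes, so RNA of these genes in Trap can be compared with the whole cord, and their levels in Input follow the lineage across injury states.

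Library totals ran from 17981133 to 22907909 estimated counts in Input and from 17124034 to 23189228 in Trap. The labelled cell types were checked with marker lists. All 14 astrocyte markers were higher in Trap (median log2 difference 3.33), Aldh1l1 lying between 51.8 and 65.3 CPM (counts relative to the library total, scaled by TMM factors) in Input and between 560 and 848 CPM in Trap. Neuron (10 of 10, median -4.23), microglia (10 of 10, median -3.99) and endothelial markers (8 of 8, median -2.81) were lower. All 5 blood markers were higher (median 2.41), and of 5 ependymal markers 2 were higher and 2 lower (median 0.206). Male 7 weeks replicate 2 and female 3 weeks replicate 3 had the lowest median Spearman correlations to the other Trap libraries, 0.979 and 0.986. Female 5 weeks replicate 3 followed closely at 0.987, and the rest ran up to 0.9917. Leaving out the lowest 2 gave the same counts of called oligodendrocyte genes in every comparison it was run on (Trap against Input, the 3 fracture comparisons in Trap, the sexes in Trap and the difference of the fracture effect between them).

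In the whole cord these genes spanned a wide range of levels. The 34 genes together took 2.07% ± 0.141 of the counts in Input (SD, n = 8) and 0.368% ± 0.0601 in Trap (SD, n = 24). Mbp (myelin basic protein, which compacts the myelin membrane) alone took 1.09% ± 0.113 in Input and 0.133% ± 0.0401 in Trap. Compared per kilobase of exon, the highest Input levels were those of Mbp (993 CPM per kb), Trf (transferrin, 367), Mobp (a myelin basic protein of the central nervous system, 280), Cnp (216) and Mal (185). The lowest were Tcf7l2 (0.251 CPM per kb), Bmp4 (0.651), Ninj2 (0.928) and Cspg4 (1.09).

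The comparison of Trap with Input asked how far RNA of this lineage was depleted by the astrocyte pull-down. Of the 34 genes, 30 were lower in Trap and 4 were higher, and each passed an adjusted p of 0.05 in edgeR's quasi-likelihood test. The median log2 difference of the 34 was -2.56, against 0.0055 over all 16804 genes tested. The background is high in this comparison, since 44.2% of all genes were called lower and 43.8% higher. In 28 genes the highest of the 24 Trap libraries lay below the lowest of the 8 Input libraries. In 4 all Trap libraries lay above all Input libraries, and the ranges overlapped for Aspa and Ninj2. How many of all genes had such separate ranges was not counted. Scaling with DESeq2's size factors moved the median of all genes from 0.0055 to -0.123 and left all 34 directions and calls in place. In bulk RNA, fewer cells of a type and less RNA per cell cannot be told apart.

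**Figure D1:**
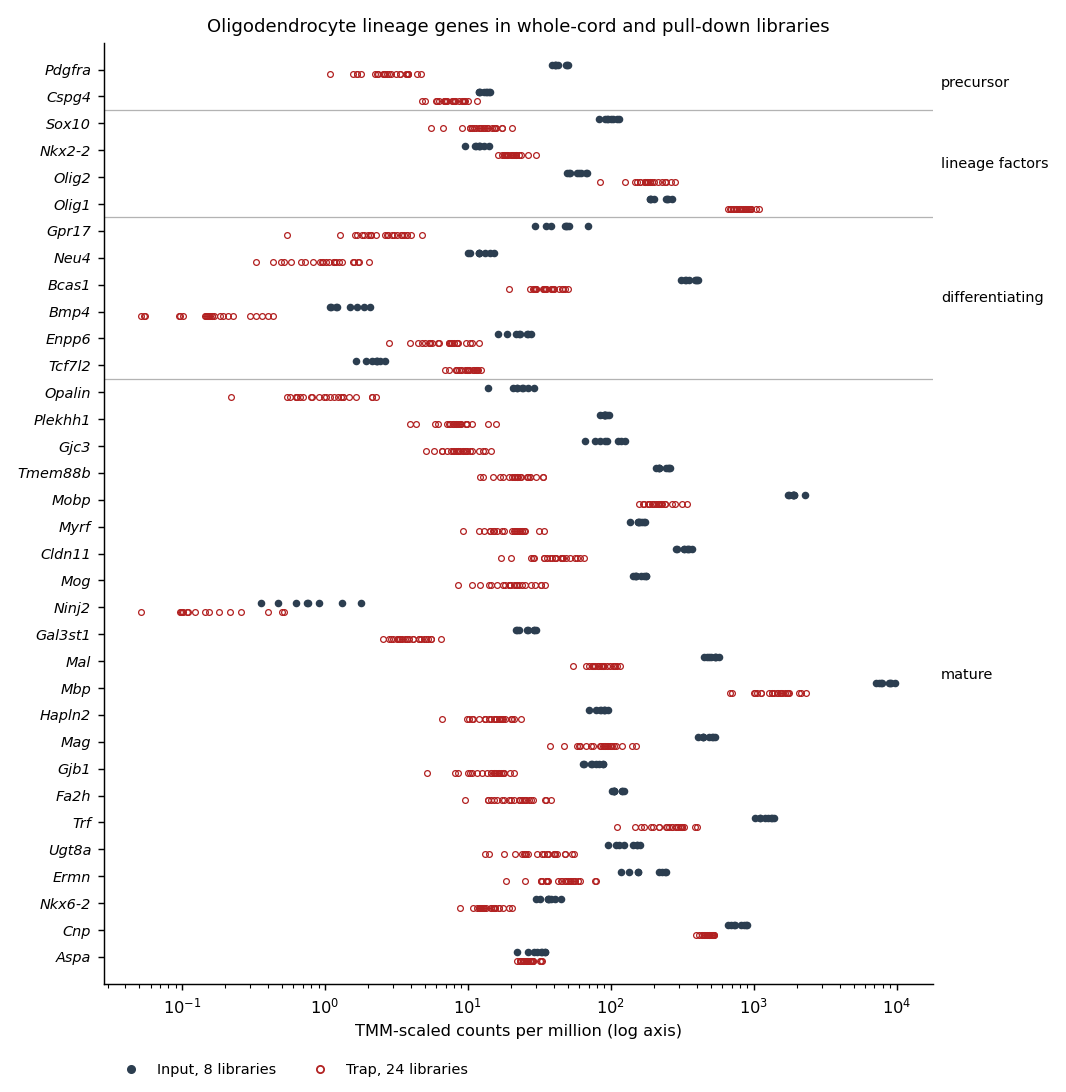
Level of each of the 34 genes in each library, in TMM-scaled CPM on a log axis, with filled points for the 8 Input and open points for the 24 Trap libraries. Genes are grouped by stage and ordered by their log2 difference. Olig1, Olig2, Nkx2-2 and Tcf7l2 lie to the right in Trap and the other genes to the left, with Aspa and Ninj2 overlapping. The 8 Trap libraries with no Ninj2 count are not drawn.

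The precursor genes were depleted to unequal degrees. Pdgfra (the receptor for platelet-derived growth factor A, chr5:75152292-75198215) had a lowest, median and highest level of 38.7, 41.8 and 50.3 CPM in Input and of 1.09, 2.77 and 4.68 CPM in Trap. Its log2 difference was -3.95 ± 0.104 (SE, adjusted p = 1.78e-28 in edgeR's test), so that Trap held 6.47% of the Input level. Cspg4 (chr9:56865033-56899870) ran from 11.9 to 14.2 CPM in Input and from 4.74 to 11.5 CPM in Trap, a log2 difference of -0.751 ± 0.0948 (adjusted p = 4.27e-09). The Cspg4 ranges came within 1 CPM of each other, whereas those of Pdgfra were far apart. Pericytes also express Cspg4, and of 10 markers of mural cells and fibroblasts 7 were lower in Trap and 3 higher (median -0.928). Among them Rgs5, a pericyte gene, ran from 22.5 to 42.7 CPM in Input and from 2.33 to 9.35 CPM in Trap, and Kcnj8 from 1.41 to 3.32 CPM and from 0.466 to 2.06 CPM. Pdgfrb, a receptor of pericytes, went the other way, from 6.09 to 9.89 CPM in Input and from 25.2 to 62.7 CPM in Trap. Col1a1 and Col1a2 were the other 2 higher genes. Their part in the Cspg4 level was not tested.

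Of the 4 lineage transcription factors, 3 were higher in Trap and 1 was lower. Olig1 (chr16:91269772-91271933), a basic helix-loop-helix factor of the lineage, had a lowest, median and highest level of 657, 828 and 1090 CPM in Trap, and ran from 187 to 270 CPM in Input. This is a log2 difference of 1.92 ± 0.0610 (adjusted p = 2.22e-26). Its neighbour Olig2 (chr16:91225457-91228677), which specifies the lineage, ran from 49.4 to 68.1 CPM in Input and from 84.2 to 280.0 CPM in Trap (1.67 ± 0.120, adjusted p = 2.17e-14). Nkx2-2, a homeobox factor that acts in precursor differentiation, had 9.53 to 14.1 CPM in Input and 16.2 to 29.8 CPM in Trap (0.793 ± 0.0794, adjusted p = 1.63e-11). Sox10, which stays on through the lineage and drives myelin genes, went the other way. It ran from 82.5 to 115 CPM in Input and from 5.49 to 20.4 CPM in Trap (-2.97 ± 0.113, adjusted p = 8.35e-22).

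Promoter letters of Olig2 and Nkx2-2 are shown because these 2 factors, unlike Sox10, were higher in Trap. They are RefSeq promoters on GRCm38.p6, up to 250 bases before the start, printed 5′ to 3′ on the gene's strand and without the bases that are exon in GENCODE M21. Capitals mark SOX letters (ACAAAG or ACAAT) and E-box letters (CAGATG or CAGCTG) on either strand.
Olig2, chr16:91225300-91225456, plus strand: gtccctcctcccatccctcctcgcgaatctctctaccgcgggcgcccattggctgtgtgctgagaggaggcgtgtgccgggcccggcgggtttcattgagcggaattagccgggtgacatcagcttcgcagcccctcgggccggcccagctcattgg
Nkx2-2, chr2:147186456-147186652, minus strand: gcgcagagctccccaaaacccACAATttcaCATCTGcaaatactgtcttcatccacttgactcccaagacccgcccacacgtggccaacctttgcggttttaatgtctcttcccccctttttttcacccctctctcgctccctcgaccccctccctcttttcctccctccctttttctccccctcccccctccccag
The stretch of Nkx2-2 holds 1 SOX and 1 E-box match, and that of Olig2 holds none of the letters searched. The Nkx2-2 stretch lies inside the gene as GENCODE M21 gives it (chr2:147177546-147194243). It precedes an internal start and not the outermost one.

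Among the 6 genes of committed and differentiating cells, 5 were lower in Trap and 1 was higher. Gpr17 (ENSMUSG00000052229.5), a receptor that marks committed precursors, ran from 29.3 to 69.3 CPM in Input and from 0.544 to 4.74 CPM in Trap. Its log2 difference of -4.10 ± 0.120 (adjusted p = 3.26e-26) left 5.83% of the Input level. Neu4 (a sialidase) differed by -3.54 ± 0.125, Bcas1 (a marker of newly myelinating cells) by -3.36 ± 0.0921, Bmp4 (a secreted growth factor) by -2.97 ± 0.173 and Enpp6 (a choline phosphodiesterase of newly formed oligodendrocytes) by -1.70 ± 0.131. Tcf7l2, a Wnt effector active in differentiating oligodendrocytes, was the exception. It ran from 1.64 to 2.64 CPM in Input and from 6.85 to 12.3 CPM in Trap, a log2 difference of 2.16 ± 0.105 (adjusted p = 1.21e-20). Bmp4 was at most 2.05 CPM in any library, so its value rests on few counts.

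All 22 mature genes were lower in Trap, 20 of them by more than 2-fold, 17 by more than 4-fold and 6 by more than 8-fold. The 6 were Opalin (a membrane glycoprotein of myelin, -4.37 ± 0.142), Plekhh1 (-3.44 ± 0.106), the gap junction gene Gjc3 (-3.39 ± 0.0915), Tmem88b (-3.38 ± 0.110), Mobp (-3.12 ± 0.0880) and Myrf (the transcription factor of myelination, -3.03 ± 0.130). Opalin ran from 13.7 to 29.1 CPM in Input and from 0.218 to 2.27 CPM in Trap, so that Trap held 4.84% of the Input level. Mbp had a lowest and highest level of 7200 and 9750 CPM in Input and of 679 and 2330 CPM in Trap. At -2.55 ± 0.144 its log2 difference lay at the middle of the mature genes, and Trap held 17.1% of the Input level. This is on the TMM scale. The TMM factors were 1.272 to 1.317 in Input and 0.8623 to 1.025 in Trap. They raise every Trap level relative to Input, so percentages of the Input level are higher than unscaled counts would give. The shares of counts of Mbp, 1.09% in Input and 0.133% in Trap, are not scaled in this way.

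Several other structural proteins and adhesion molecules of myelin lay nearer to Mbp than Opalin (-4.37) or Cnp (-0.71) did. The tight junction protein Cldn11 differed by -3.0 ± 0.141, the surface glycoprotein Mog by -2.95 ± 0.145, the proteolipid Mal by -2.57 ± 0.0746, the nodal matrix linker Hapln2 by -2.51 ± 0.116 and the adhesion molecule Mag by -2.44 ± 0.148. Among genes of myelin lipids, Gal3st1 (the sulfatide-making sulfotransferase) differed by -2.66 ± 0.0892, Fa2h (which hydroxylates the fatty acids of myelin lipids) by -2.32 ± 0.146 and Ugt8a (which makes galactosylceramide) by -1.99 ± 0.154. Gjb1 (connexin 32) differed by -2.44 ± 0.129, Trf by -2.25 ± 0.145, the cytoskeletal gene Ermn by -1.98 ± 0.147 and the homeobox gene Nkx6-2 by -1.38 ± 0.0807. Ninj2 differed by -2.72 ± 0.322 but stood at 0.354 to 1.79 CPM in Input and had no count in 8 of the 24 Trap libraries.

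The mature genes depleted least were Cnp and Aspa. Cnp (2′,3′-cyclic nucleotide phosphodiesterase, an enzyme of uncompacted myelin) ran from 666 to 905 CPM in Input and from 392 to 529 CPM in Trap, a log2 difference of -0.710 ± 0.0523 (adjusted p = 3.78e-15). Trap thus held 61.1% of the Input level of Cnp. Aspa (aspartoacylase, which frees acetate for myelin lipids) ran from 22 to 34.8 CPM in Input and from 22 to 33.1 CPM in Trap. Its log2 difference of -0.199 ± 0.0702 (adjusted p = 0.00892) was not called in males alone (-0.0535, adjusted p = 0.616).

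Exons of 12 of the 34 genes overlap exons of another gene, and the sources used here do not say whether counting used strand. For most of them the other gene was low. Cnp shares 154 of its 3639 exon bases with Dnajc7 on the opposite strand, a gene at 150.0 CPM in Input and 190.0 CPM in Trap. Nkx6-2 shares 246 of 1907 bases with Inpp5a (53.9 and 50.7 CPM), and Plekhh1 shares 992 of 6718 bases with Pigh (9.44 and 22.6 CPM). Trf shares 2108 of 3320 bases with Gm20425 on its own strand, whose level was not analysed here. How far reads of these partners enter the values was not tested.

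Further genes of the lineage were read from 3 lists. Of 12 other precursor genes 6 were higher and 6 lower in Trap (median -0.123), with Susd5 (-4.01 ± 0.130) and Pcdh15 (-3.65 ± 0.108) at the low end and the transcription factors Sox6 (2.28 ± 0.0928) and Sox5 (2.10 ± 0.0816) at the high end. Of 12 other genes of differentiating cells 5 were higher and 5 lower (median 0.0113), from Zfp488 (a lineage repressor, -4.58 ± 0.145) and 9630013A20Rik (-3.70 ± 0.246) to Fyn (a kinase of myelination, 1.34 ± 0.0481) and the calcium channel Itpr2 (2.14 ± 0.114). Of 32 other mature genes 6 were higher and 26 lower (median -1.95). Their extremes were Tppp (a microtubule protein of oligodendrocytes, -3.79 ± 0.0626) and the tetraspanin Tspan2 (-3.38 ± 0.0876) against Cd9 (1.43 ± 0.0700) and the cytokine Il33 (1.48 ± 0.0508). Each of these 3 lists held genes in both directions, with most of the mature genes lower. Over all genes tested 43.8% were called higher and 44.2% lower, with a median of 0.0055. The counts of the precursor and differentiating lists lay near those shares.

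The 8 Input libraries asked how the lineage changed in the whole cord after fracture. At 3 weeks 4 of the 34 genes fell and none rose in edgeR's test, adjusted for sex. They were Gpr17 and Neu4 of the differentiating genes and Gjc3 and Mal of the mature genes. Over all 16803 genes tested, 0.649% were called lower and 0.434% higher. The median log2 difference of the 34 genes was -0.101, against -0.00671 over all genes. Each state has 1 Input library per sex, and the fit leaves 3 residual degrees of freedom.

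Gpr17 stood at 69.3 CPM in the uninjured female library and 35.1 CPM at 3 weeks, and at 48.3 and 29.3 CPM in the male libraries. Both 3-week libraries lay below both uninjured libraries, a change of CPM of -49.4% in females and -39.5% in males. Its log2 difference was -0.876 ± 0.0912 (adjusted p = 0.000109 in edgeR's test). With so few libraries, genes without a call were separated as well. Bmp4, Bcas1, Cldn11 and Hapln2 lay lower without overlap, and Cspg4 and Tcf7l2 higher. The share of all genes separated in this way was not counted. Neu4 went from 15.2 to 10.3 CPM in females and from 14.3 to 10 CPM in males, again without overlap. Its log2 difference was -0.553 ± 0.117 (adjusted p = 0.0283). The call of Neu4 was lost in DESeq2's test (adjusted p = 0.0719) and on leaving out any of 6 Input libraries. Its adjusted p by edgeR's test was 0.360 without female uninjured, 0.0879 without female 3 weeks, 0.0538 without female 5 weeks, 0.0686 without male uninjured, 0.233 without male 3 weeks and 0.0585 without male 5 weeks.

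Gjc3 (ENSMUSG00000056966.7, chr5:137953461-137963098), a connexin of myelinating cells, went from 125 to 91.5 CPM in females and from 93.4 to 66.3 CPM in males. The log2 difference was -0.483 ± 0.0605 (adjusted p = 0.000412). Mal (ENSMUSG00000027375.14, chr2:127633226-127656695), a proteolipid of myelin, went from 575 to 451 CPM in females and from 535 to 472 CPM in males. Its 3-week libraries also lay below the uninjured ones, with a log2 difference of -0.279 ± 0.0522 (adjusted p = 0.0140). Gpr17 and Gjc3 were called on leaving out each of the 8 Input libraries in turn. The call of Mal was lost without female uninjured (adjusted p = 0.290 in edgeR's test), female 3 weeks (0.177) or male uninjured (0.0798).

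The other genes of each stage showed no call at 3 weeks. The precursor genes Pdgfra (-0.112 ± 0.0797, adjusted p = 0.585 in edgeR's test) and Cspg4 (0.116 ± 0.117, adjusted p = 0.723) lay on either side of 0. All 4 lineage transcription factors had small positive values, from 0.0605 for Olig2 to 0.112 for Sox10. The median of the 6 differentiating genes was -0.445, with 5 negative. Among those not called were Bmp4 (-0.623 ± 0.315), Enpp6 (-0.337 ± 0.0991, adjusted p = 0.125) and Bcas1 (-0.240 ± 0.109). The 22 mature genes had a median of -0.101, with 15 negative, and ran from Gjc3 to Ninj2 (0.593 ± 0.415, below 2 CPM). Mbp (-0.104 ± 0.0398, adjusted p = 0.237) was 7860 and 9210 CPM in the uninjured libraries and 7200 and 8890 CPM at 3 weeks, female before male. Ermn (-0.276 ± 0.0659) came nearest to a call, with an adjusted p of 0.0570, and DESeq2's test called it.

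**Figure D2:**
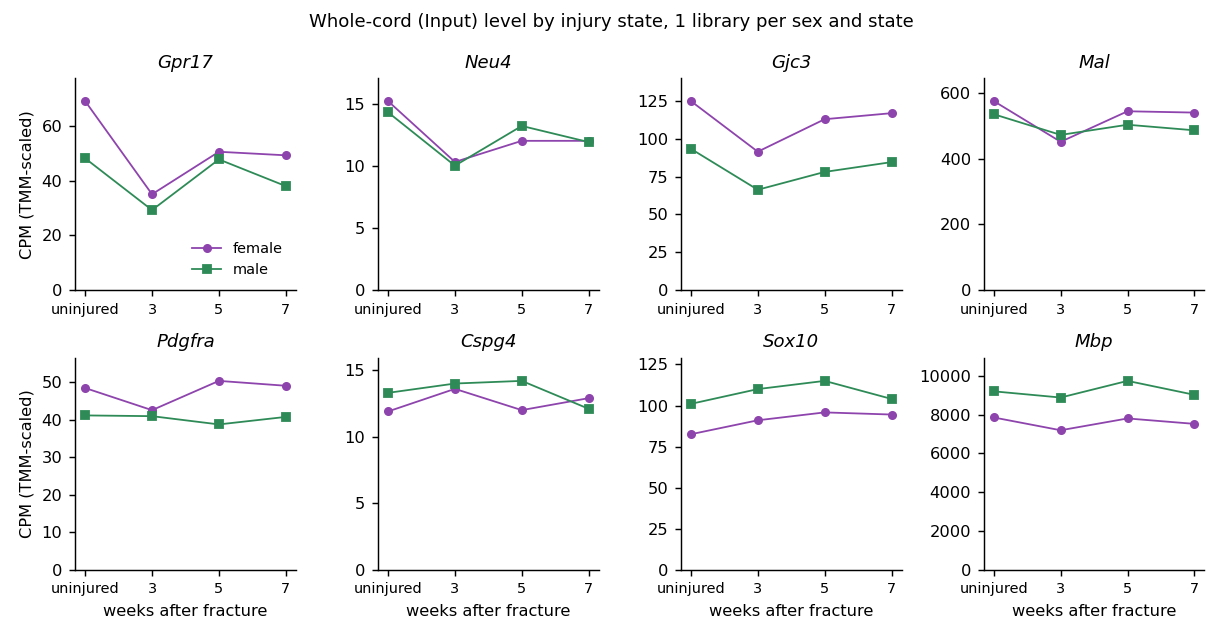
Level of 8 genes in the 8 Input libraries, in TMM-scaled CPM on axes that start at 0, by weeks after fracture and sex, with 1 library per point and lines joining the libraries of a sex. Gpr17, Neu4, Gjc3, Mal and Mbp are lowest at 3 weeks in both sexes, and Pdgfra, Cspg4 and Sox10 are not. The change of Mbp at 3 weeks is -8.37% in females and -3.48% in males. In size the male change of Mal at 3 weeks (-11.7%) is no larger than the female changes of Pdgfra (-12.3%) and Cspg4 (13.6%).

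Counted by sex, 16 of the 34 genes were lower than uninjured at 3 weeks in both Input libraries, 9 were higher in both and 9 differed in direction. Over all genes tested 29.4% were lower in both and 30.8% higher in both. Of the 6 differentiating genes 5 were lower in both sexes. Of the other lineage genes at 3 weeks, 2 mature genes fell in edgeR's test, Anln (anillin, -0.432 ± 0.0611, adjusted p = 0.00123) and Tspan2 (-0.299 ± 0.0582, adjusted p = 0.0161). None of the 12 other precursor genes and none of the 12 other differentiating genes was called, though 11 of the latter were negative (median -0.159). Markers of other cells moved in the same libraries. Of 10 microglia markers all were positive and C1qb was called (0.363 ± 0.0818, adjusted p = 0.0397). Of 14 astrocyte markers 7 were positive and 7 negative (median -0.0209). The connexins Gja1 (-0.290 ± 0.0553) and Gjb6 (-0.595 ± 0.0758) fell, while Gfap (0.272 ± 0.0730, adjusted p = 0.134 in edgeR's test) had the highest value. The microglia score, the mean log2 CPM of its 10 genes, was 4.43 and 4.66 in the uninjured and 4.75 and 4.87 in the 3-week libraries. The astrocyte score was 7.75 to 7.81 and 7.74 to 7.75. The part of these cells in the 4 calls was not tested.

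Promoters of Gjc3, Mal and Neu4 are shown because these genes fell in the whole cord at 3 weeks. Source and capitals are as above.
Gjc3, chr5:137963099-137963348, minus strand: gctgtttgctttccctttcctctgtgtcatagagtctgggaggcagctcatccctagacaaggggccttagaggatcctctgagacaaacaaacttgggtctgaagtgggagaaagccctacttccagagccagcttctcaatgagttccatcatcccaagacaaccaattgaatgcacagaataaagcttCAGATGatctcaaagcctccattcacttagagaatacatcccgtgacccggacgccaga
Mal, chr2:127656696-127656945, minus strand: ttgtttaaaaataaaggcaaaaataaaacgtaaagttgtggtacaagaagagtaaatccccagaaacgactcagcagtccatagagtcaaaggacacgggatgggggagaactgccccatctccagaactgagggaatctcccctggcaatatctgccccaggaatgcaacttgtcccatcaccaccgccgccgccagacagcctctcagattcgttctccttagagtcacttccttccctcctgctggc
Neu4, chr1:94020243-94020450, plus strand: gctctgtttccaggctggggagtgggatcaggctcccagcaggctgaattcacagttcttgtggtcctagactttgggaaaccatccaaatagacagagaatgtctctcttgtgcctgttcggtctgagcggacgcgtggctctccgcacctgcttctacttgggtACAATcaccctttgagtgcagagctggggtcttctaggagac
The Gjc3 stretch holds 1 E-box match, the Neu4 stretch 1 SOX match and the Mal stretch none.

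RefSeq promoters were found for 26 of the 34 genes. Not among them were Mbp, Gpr17, Fa2h, Myrf, Olig1, Trf, Bcas1 and Sox10. Over the 250 bases before the start, SOX letters on either strand occurred in 61.8% of the 34 promoters of these 26 genes and in 38.8% of all 32851 promoters of the table. Letters bound by the Myrf family (CTGGCAC or CTGGTAC) occurred in 14.7% and 5.93%, and E-box letters in 23.5% and 25.5%. These shares count all 250 bases, including those left out above as exon, where Olig2 has 1 SOX match. They count letters and say nothing of binding.

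At 5 weeks after fracture no member of the lineage was called in Input, where 0.107% of all genes were called. An unadjusted p under 0.05 by edgeR occurred for 5 of the 34 genes and for 1427 of all 16803 genes. DESeq2's test called none of the 34. Gpr17 stood at 50.7 CPM in the female and 47.9 CPM in the male library (-0.241 ± 0.0885, adjusted p = 0.455). Sox10 (0.199 ± 0.0611, adjusted p = 0.346) and Nkx6-2 (0.266 ± 0.0772, adjusted p = 0.306) were positive without a call. The median of the 34 was -0.00929.

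At 7 weeks none of the 34 was called either, with 0.214% of all genes called. At an unadjusted p under 0.05 by edgeR stood 5 of the 34 and 986 of all 16803 genes. DESeq2's test called none of the 34. Gpr17 stood at 49.4 CPM in the female and 38.1 CPM in the male library. Its log2 difference of -0.411 ± 0.0902 had an adjusted p of 0.101 in edgeR's test. Results without the male uninjured Input library rest on 1 uninjured library, the female one. Opalin was 13.7 CPM there and 22.1 CPM in the female library at 7 weeks, a rise. In males it went from 29.1 to 26.5 CPM. Gpr17 values at 5 and 7 weeks lay between those of 3 weeks and uninjured within each sex. The 3 comparisons share their uninjured libraries, so their values stand side by side and are not independent. The medians of the 6 differentiating genes were -0.445, -0.136 and -0.320 at 3, 5 and 7 weeks, and those of the 22 mature genes were -0.101, -0.00929 and -0.0392. The medians of the 4 lineage factors were 0.0763, 0.132 and 0.153.

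The sexes differed widely in Input. Of the 34 genes 14 were higher and 8 lower in males, against 46.2% of all genes called in either direction. Olig1 was 0.357 higher on the log2 scale (adjusted p = 1.15e-06 in edgeR's test), with 187 to 200 CPM in the 4 female and 243 to 270 CPM in the 4 male libraries. Ermn (-0.774, adjusted p = 8.27e-09) ran from 217 to 242 CPM in females and from 118 to 155 CPM in males. Gjc3 (-0.514), Ugt8a (-0.499), Enpp6 (-0.424), Aspa (-0.375), Gpr17 (-0.357) and Pdgfra (-0.277) were lower in males as well. Mbp (0.235), Cnp (0.245), Mag (0.203) and Trf (0.211) were higher. Fa2h lost its call without any 1 of 6 Input libraries (all but the 7-week ones), Mal without any 1 of 4 (the uninjured and 5-week ones) and Ninj2 without either 5-week library, with adjusted p of 0.0525 to 0.235 in edgeR's test. Fa2h also lost its call in edgeR's test with DESeq2's size factors (adjusted p = 0.0658) and without a filter (0.0709). In DESeq2's test Fa2h (adjusted p = 0.125) and Ninj2 (0.0683) were not called. The column names of the male Input libraries carry a code that the female ones lack, so sex and the set of libraries cannot be told apart. In Trap none of the genes was called between the sexes (0.195% of all genes called, 3 members at an unadjusted p under 0.05 by edgeR, none by DESeq2).

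In Trap the oligodendrocyte RNA that remained showed no call at any time after fracture. Bmp4 and Ninj2 were too low to be tested, which leaves 32 genes. At 3 weeks 0.111% of all 15380 genes were called, and 3 of the 32 had an unadjusted p under 0.05 by edgeR. At 5 weeks 0% of all genes were called and no member had such a p, and at 7 weeks 0% were called and 1 member had one. These shares of all genes count calls, so they are not the background of the counts at an unadjusted p. DESeq2's test called no member at any time. The medians of the 32 were -0.0450, 0.184 and 0.0993 at 3, 5 and 7 weeks, with 10, 29 and 24 of them positive, against medians of 0.00316, -0.0018 and 0.00426 over all genes. The 3 comparisons share their uninjured libraries. Among these, male uninjured replicate 3 was the lowest Trap library for 14 of the 22 mature genes. The genes are read in the same libraries, so the counts of positive genes are not counts of independent results.

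Olig1 had the smallest adjusted p in Trap, at 3 weeks (0.223 ± 0.0737, adjusted p = 0.285 in edgeR's test). Its level was 751 to 916 CPM in the 6 uninjured Trap libraries (median 816) and 817 to 1090 CPM in the 6 at 3 weeks (median 950.0), which overlap. Olig2 (0.343 ± 0.164, adjusted p = 0.575) ran from 125 to 243 CPM without injury and from 159 to 280.0 CPM at 3 weeks. Nkx6-2 (0.312 ± 0.138, adjusted p = 0.520) was the other gene with an unadjusted p under 0.05 there. Neu4 at 7 weeks (0.766 ± 0.312) had an adjusted p of 1 and stood near 1 CPM.

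The 4 genes that fell in Input at 3 weeks were not called in Trap. Gpr17 differed by -0.472 ± 0.322 (adjusted p = 0.770 in edgeR's test), with 1.61 to 3.77 CPM in the 6 uninjured and 0.544 to 4.74 CPM in the 6 libraries at 3 weeks. Gjc3 differed by -0.0154 ± 0.181, Mal by -0.0117 ± 0.135 and Neu4 by 0.254 ± 0.332. The standard errors in Trap were larger than in Input for all 4. Whether the fracture effect differed between Trap and Input was tested by 1 F test of 3 interaction terms. No member passed (0.00572% of all genes called, 1 member, Ninj2, at an unadjusted p under 0.05 by edgeR, none by DESeq2). The fracture effect in Trap did not pass as different between the sexes for any member (0% of all genes called, no member at an unadjusted p under 0.05 by edgeR, none called by DESeq2).

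**Figure D3:**
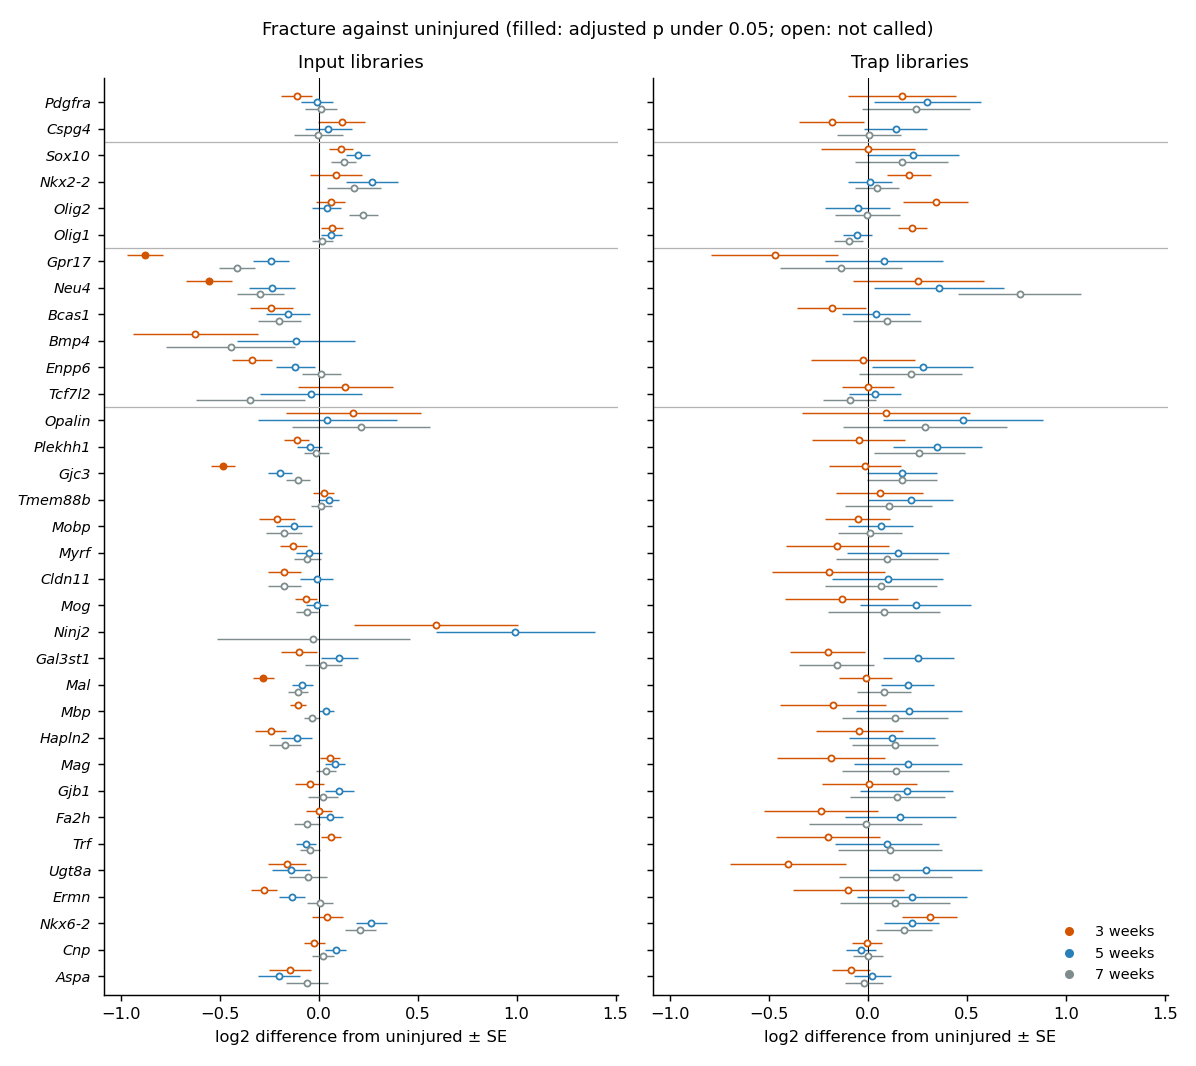
Log2 difference from uninjured with its SE for each gene at 3, 5 and 7 weeks, in Input (left, 8 libraries in the fit) and in Trap (right, 24 libraries). Filled points passed an adjusted p of 0.05, namely Gpr17, Neu4, Gjc3 and Mal in Input at 3 weeks. Bmp4 and Ninj2 have no value in Trap.

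The level of mature genes varied more between Trap libraries than between Input libraries. Their score, the mean log2 CPM of the 22 genes (prior count 2), ran from 7.12 to 7.31 in Input and from 3.91 to 5.25 in Trap. It ran from 3.91 to 4.98 in the 6 uninjured Trap libraries, from 3.97 to 5.00 at 3 weeks, from 4.54 to 5.25 at 5 weeks and from 4.41 to 5.17 at 7 weeks. The 4 states overlapped. The lowest score was that of male uninjured replicate 3, which was the lowest of the 24 libraries for 14 of the 22 genes. Female 3 weeks replicate 2 was lowest for 5 more. Female 5 weeks replicate 1 and female 7 weeks replicate 3 were each the highest for 8 genes.

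Markers of other cells differed between the same libraries. Male uninjured replicate 3 had a neuron score of 3.72 and a microglia score of 0.95, where the Trap libraries ran from 3.49 to 5.18 and from 0.61 to 1.93. Its globin RNA was the highest of all Trap libraries, with Hba-a1 at 499 CPM against a median of 290.0. Female 3 weeks replicate 3 had the highest neuron and microglia scores, 5.18 and 1.93, the lowest astrocyte score, 10.79, and a mature score of 5.00. In female 5 weeks replicate 1 the astrocyte score was 11.18, within the Trap range of 10.79 to 11.26. The lineage factors did not all follow the mature genes. Sox10 was lowest in male uninjured replicate 3 (5.49 CPM) and highest in female 5 weeks replicate 1 (20.4 CPM), as the mature score was. Female 7 weeks replicate 3 had the lowest Olig2 level, 84.2 CPM, with Sox10 at 17.2 CPM and a mature score of 5.17. The part of these differences in the Trap comparisons was not tested.

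**Figure D4:**
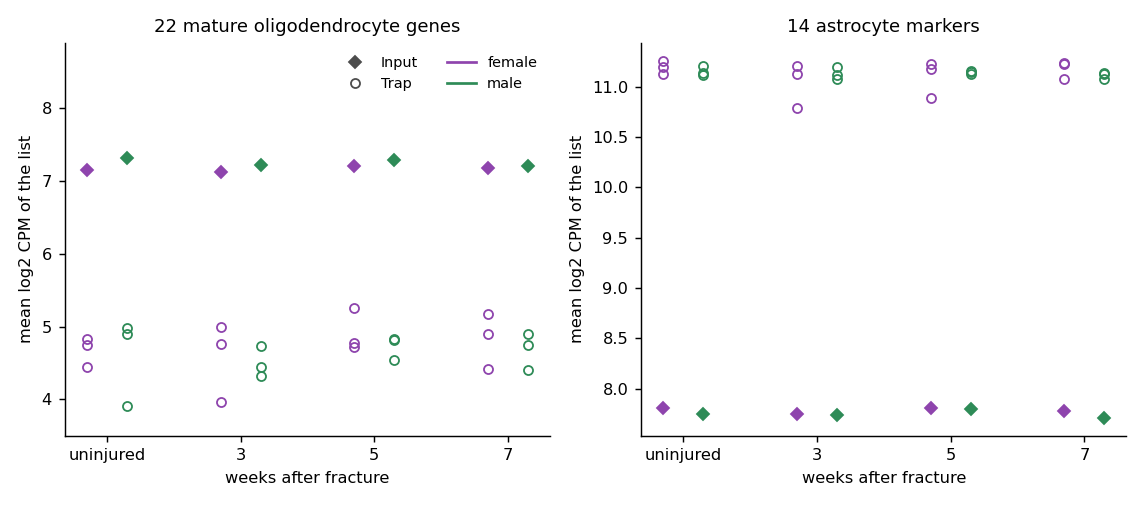
Mean log2 CPM of the 22 mature oligodendrocyte genes (left) and of 14 astrocyte markers (right) in each library, by weeks after fracture and sex, with diamonds for Input and open circles for Trap. The mature score is 7.12 to 7.31 in Input and 3.91 to 5.25 in Trap with overlapping states, and the astrocyte score is 7.71 to 7.81 in Input and 10.79 to 11.26 in Trap. The axes do not start at 0.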

How the data were processed

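Lumbar spinal cord RNA of mice was sequenced after poly-A selection as 24 Trap and 8 Input libraries. The authors deposited 1 table of RSEM estimated counts for 55938 genes. Per the submitters' processing notes, FastQC, Trim Galore, STAR, RSEM and GRCm38 were used, while the sources used here give no version or annotation release. Reads that several genes could have produced are split between them by RSEM. Estimated counts, of which 6.21% to 8.53% per library were not whole, were rounded to whole numbers. Symbols matched 55141 identifiers, and the 797 without one held 0.301% of counts.

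The test was edgeR's quasi-likelihood F test (edgeR 4.0.16, R 4.3.3), after filterByExpr and TMM scaling, with glmQLFit's robust option on and its legacy mode off. Benjamini-Hochberg adjustment ran over all genes of a fit, and an adjusted p under 0.05 is a call. Shares of all genes called are no background for member counts at an unadjusted p. Trap against Input used all 32 libraries with sex and state as additive terms (16804 genes). Input used 8 libraries with sex and state (16803 genes, 3 residual degrees of freedom), and Trap used 24 with a mean per sex and state, averaged over the sexes (15380 genes). DESeq2 1.42.0 was an alternative, beside its size factors, no filter, other sets of libraries and the replicate number as a block. Levels are TMM-scaled CPM, and levels per kb use GENCODE M21 exons. In simulated data with log2 changes of 1, 98.4% of changed genes tested were recovered for Trap against Input. The shares were 85.9% for Input at 3 weeks and 92.5% for Trap at 3 weeks. False calls numbered 13, 11 and 10 in the same order. The simulation gave every gene the same spread and no difference between the sexes. Its changes were larger than those of the members called in Input at 3 weeks, and recovery of smaller changes was not measured. No 2 libraries held identical values. Python 3.11.15 made tables and figures.

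The members, stage groups and other lists were chosen with earlier results of these data known. Named genes were all 34 members, from each list of other lineage genes the 2 most and 2 least different between Trap and Input and every one called at 3 weeks after fracture, and the leading markers of other cells. Gja1, Gjb6, Gfap, C1qb, Pdgfrb, Col1a1 and Col1a2 were named outside this rule, after their values were seen. Some results on other lineage genes and markers are not reported here.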

Additional observations from a re-analysis of the deposited data

Results flagged for a closer look

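Single libraries stood far from the others of their state for 5 genes. The gap between the most extreme library and its nearest neighbour, as a share of the range, passed Dixon's 95% critical value (0.625 for 6 libraries, 0.526 for 8) in 7 of 158 groups tested, where chance gives about 1 in 20. The groups were the 6 Trap libraries of a state, both sexes together, or all 8 Input libraries, for genes with a median of at least 1 CPM.

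Olig2 was 84.2 CPM in Trap of female 7 weeks replicate 3, where the other 5 libraries at 7 weeks ran from 179 to 228 CPM. Plekhh1 was 15.7 CPM in the same library, above 6.21 to 9.67 CPM in the others. Nkx2-2 was 29.8 CPM in Trap of male 3 weeks replicate 3 (others 19.1 to 22.8 CPM). It was 26.5 CPM in Trap of male 7 weeks replicate 2 (others 18 to 21.1 CPM). Mobp was 339 CPM in Trap of female 3 weeks replicate 3, against 158 to 202 CPM in the others. Among the Input libraries Mobp was 2300.0 CPM in the uninjured female one, against 1740.0 to 1930.0 CPM in the other 7. Tmem88b was 33.5 CPM in Trap of female 5 weeks replicate 1, against 21.4 to 25.8 CPM. All 34 directions and calls of Trap against Input held without the libraries of female 3 weeks replicate 3 and male 7 weeks replicate 2.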

How the results depend on the processing

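The count of 34 genes called between Trap and Input held under DESeq2's size factors, no filter, DESeq2's test, females alone, without the 2 Trap libraries least correlated with the others (chosen after seeing the data) and on leaving out each Input library, and was 33 in males alone. In Input at 3 weeks the count of 4 ran from 2 to 5 on leaving out 1 library (2 without female uninjured), and at 7 weeks from 0 to 2 (2 without male uninjured). All genes called in Input at 3 weeks ran from 34 to 346 around 182. The counts of 0 in Trap held under every alternative run, while the genes called in Trap at 3 weeks went from 17 to 34 without a filter, 136 by DESeq2, 106 without the 2 libraries and 3 to 57 on leaving out 1. The labels do not say that replicate numbers pair libraries, though most column names carry a code with sex and number. Same-numbered Trap libraries of a sex had a median correlation of deviations of 0.06, over 0.1 in 7 of 36 pairs, and different-numbered ones -0.03, over 0.1 in 1 of 72. With the replicate number as a block 0 members were called in each Trap comparison, and genes called at 3 weeks went to 44. With Trap replicate 1 paired with Input as a block, 34 members were called. Genes near 1 CPM (Bmp4, Ninj2, Neu4 in Trap) are limited by depth. Between the sexes in Input the count of 22 ran from 19 to 24 on leaving out 1 library. The alternatives were run for members only, so the other lineage genes and markers named have 1 value each.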
